A study of Mus musculus with 18 samples.

Results

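Sertoli cells are the somatic nurse cells of the seminiferous tubule. Their identity and hormone-response genes were taken here as 9 genes listed by symbol, Sox9, Amh, Wt1, Gata4, Fshr, Rhox5, Inha, Inhbb and Clu, out of 20979 genes with a symbol of their own in the deposited expression table. Their levels were described across 18 RNA-seq libraries of whole testis from ICR mice aged 10 weeks, in 6 groups of 3. The control group was labelled only as control, and the AOS group had received AOS at 10 mg/kg. The other groups all carried a high-fat diet: the diet alone (HFD), AOS at 10 mg/kg on top of it (HFD-AOS), FMT labelled AOS10mg/kg on top of it (HFD-AOSFMT), and FMT labelled control on top of it (HFD-conFMT). The labels do not spell out AOS or FMT, and the series' stated purpose was to look at FMT in testes damaged by the diet. Nor do they state whether the 3 libraries of a group are separate animals. The p-values therefore rest on library-to-library spread, which may be technical in part.

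WT1 and GATA4 are transcription factors of the embryonic gonad and remain on in adult Sertoli cells, and SOX9 directs the supporting cells of the XY gonad towards the Sertoli fate. Follicle-stimulating hormone (FSH) from the pituitary acts on Sertoli cells through its receptor FSHR and cyclic AMP, while testosterone comes from Leydig cells, and the homeobox gene Rhox5 is a classical androgen-responsive gene of Sertoli cells. In return, Sertoli cells secrete inhibin B, made of the subunits encoded by Inha and Inhbb, which lowers pituitary FSH release. AMH, the hormone that removes the Müllerian ducts in male fetuses, is high before puberty and low in the adult testis. Clusterin, encoded by Clu, is one of the most abundant proteins that Sertoli cells secrete. Gata4 and Inha are also expressed in Leydig cells, so in whole testis their signal is not that of Sertoli cells alone.

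The promoter of Fshr is shown because it belongs to the one hormone receptor among the 9 genes and holds a motif in the bases nearest its start. Of the 9 genes, 4 were matched in a table of RefSeq promoters on GRCm38.p6, the same assembly as mm10. The sequence lies at chr17:89200676-89200775 on the minus strand, just before the RefSeq start, and reads 5′ to 3′ with capitals marking an E-box, CACGTG.
Fshr: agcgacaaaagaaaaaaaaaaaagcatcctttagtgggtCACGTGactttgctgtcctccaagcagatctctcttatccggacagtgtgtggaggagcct
The first base of this E-box lies 61 bases before the start. CACGTG, which reads the same on both strands and is the motif of basic helix-loop-helix factors such as USF1, occurred in 7.15% of 32851 promoter windows of 300 bases. The cyclic AMP response element TGACGTCA occurred in 1.79% of them, and in 0 of the 4 matched promoters. The match describes these letters and is no evidence of binding.

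Levels are given as FPKM, which corrects for transcript length and so allows levels of different genes to be set side by side. The values of a library summed to between 588081 and 637005 FPKM, and between 12996 and 13221 genes reached 1 FPKM. Germ cell transcripts were abundant, as the tissue label implies: spermatid genes summed to 41320 to 61569 FPKM per library, and transcripts of protamines and transition proteins took 6.54% to 9.23% of all values. Crisp1, an epididymal gene, stood at 159 FPKM in control 3, 104 FPKM in HFD-conFMT 2 and 8.6 FPKM in HFD-conFMT 3, against 0 to 2.71 FPKM in the other libraries. Its part in the results was not tested, and none of the 8 genes tested was called by limma with or without control 3 and HFD-conFMT 2. Sertoli markers outside the 9 were present in every library, among them Defb19 at 223 to 328 FPKM and Cldn11, the tight junction gene of the blood-testis barrier, at 30.9 to 36.8 FPKM. Foxl2, the granulosa cell factor that opposes SOX9, was listed at 0 in 14 of the 18 libraries and at no more than 0.05 FPKM in the others.

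The 9 genes covered a wide range of levels. Clu was the highest at a mean of 485 FPKM over the 18 libraries, rank 158 among the 13105 genes whose mean reached 1 FPKM, the minimum for testing. Inha followed at 54.8 FPKM, Wt1 and Rhox5 both at 10.7 FPKM, Gata4 at 5.75 FPKM, Inhbb at 4.89 FPKM, Sox9 at 2.91 FPKM and Fshr at 1.21 FPKM. Amh, at 0.968 FPKM, was the 1 gene of the 9 below the minimum for testing. The messenger for the inhibin alpha subunit thus stood far above that for the beta B subunit, and Inhba, which encodes the alternative beta A subunit, lay at 0.02 to 0.14 FPKM.

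Variation between libraries went with depth per gene only in part. The coefficient of variation (CV) over the 18 libraries was smallest for Clu (4.54%), Wt1 (5.95%) and Inhbb (6.65%) and largest for Amh (27.6%), Fshr (19.8%) and Sox9 (16.2%). The lowest values above 0 of 652 sparse genes gave a rough value for 1 read, 74.05 FPKM times bases, from which Amh rested on about 21.8 reads per library, Fshr on 38.6 and Clu on 11843. Counting alone would then give a CV of about 21.4% for Amh and 16.1% for Fshr, below the observed 27.6% and 19.8%. For Clu it would give 0.919% against an observed 4.54%, and for Inha 3.03% against an observed 8.96%. For Inhbb the values were closer, 5.97% against an observed 6.65%. The source of the remaining spread was not tested. These read numbers are estimates, since absolute depth is unknown.

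**Figure D1:**
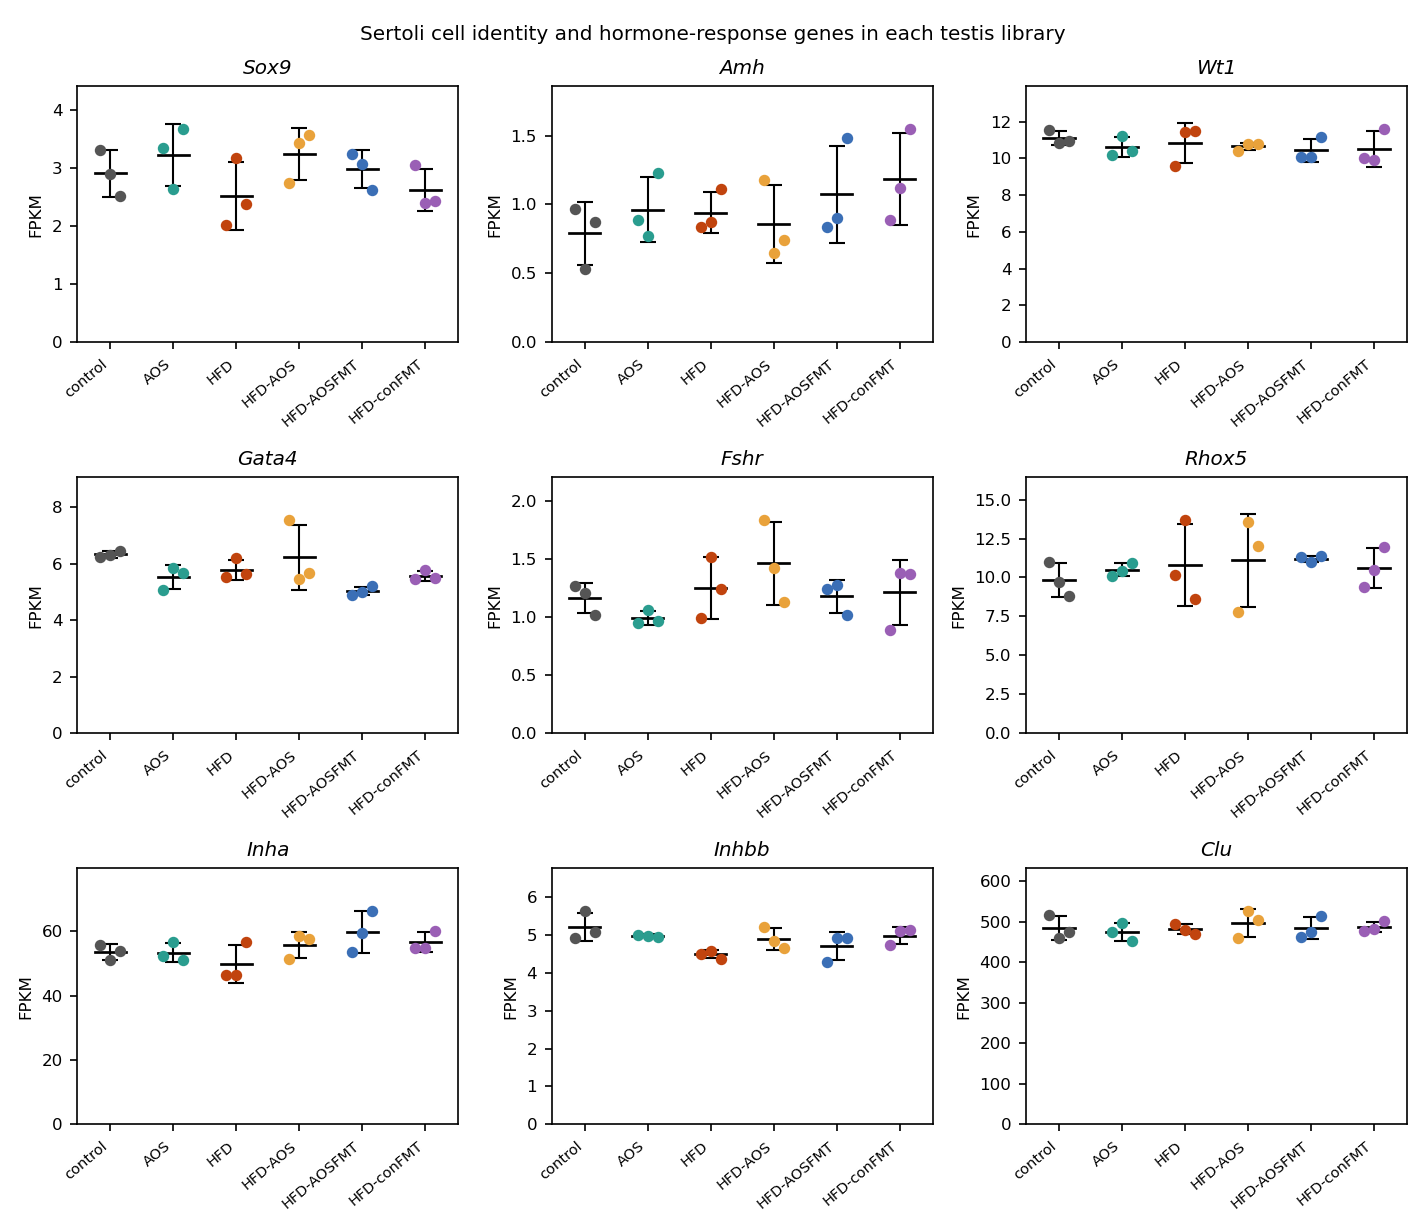
Level of each of the 9 genes in FPKM (y axis, linear from 0) in the 6 groups (x axis). Points are libraries, the long bar is the group mean and the whiskers are 1 SD (n = 3); the 3 control libraries of Gata4 lie at 6.23 to 6.46 FPKM and the 3 HFD libraries of Inhbb at 4.38 to 4.59 FPKM.

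Among the transcription factors, Gata4 (mm10, chromosome 14, 63198922 to 63271692, minus strand) showed the clearest separation between groups. Its values were 6.23, 6.30 and 6.46 FPKM in the control libraries and 5.07, 5.85 and 5.68 FPKM in the AOS libraries. With the diet they were 5.54, 6.20 and 5.62 FPKM in HFD, 7.56, 5.46 and 5.69 FPKM in HFD-AOS, 4.91, 5 and 5.2 FPKM in HFD-AOSFMT and 5.45, 5.77 and 5.50 FPKM in HFD-conFMT. All 3 control libraries lay above every library of the AOS, HFD, HFD-AOSFMT and HFD-conFMT groups, and HFD-AOS 1 alone stood higher than the controls. The group means ran from 6.33 ± 0.118 FPKM (SD, n = 3) in control to 5.04 ± 0.148 FPKM in HFD-AOSFMT, a ratio of 1.26. Of the 15 pairs of groups, 7 did not overlap for Gata4, where the genes tested had 2.55 such pairs on average. An F test over the 6 groups gave Gata4 a limma adjusted p of 0.277, so the separation did not pass the threshold of 0.05.

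Sox9 (chromosome 11, 112782224 to 112787760, plus strand) was low in every group. Its values were 3.31, 2.89 and 2.51 FPKM in control, 3.34, 2.64 and 3.67 FPKM in AOS, and 2.01, 3.16 and 2.37 FPKM in HFD. They were 2.73, 3.42 and 3.56 FPKM in HFD-AOS, 3.24, 3.07 and 2.62 FPKM in HFD-AOSFMT and 3.04, 2.39 and 2.43 FPKM in HFD-conFMT. The HFD group had the lowest mean, 2.51 ± 0.588 FPKM, and HFD-AOS the highest, 3.24 ± 0.444 FPKM, but each of the 15 pairs of groups overlapped. Wt1 (chromosome 2, 105126529 to 105173616, plus strand) was the steadiest of the transcription factors. Its libraries lay between 9.58 FPKM in HFD 1 and 11.61 FPKM in HFD-conFMT 3, and its highest group mean, 11.1 ± 0.365 FPKM in control, was 1.06 times its lowest. The control and HFD-AOS libraries were the only pair of groups that did not overlap for Wt1, at 10.84 to 11.52 and 10.41 to 10.77 FPKM.

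The FSH receptor gene Fshr (chromosome 17, 88984952 to 89200675, minus strand), whose promoter is printed above, stood close to 1 FPKM. Its group means were 0.993 ± 0.0586 FPKM in AOS, 1.17 ± 0.131 FPKM in control, 1.18 ± 0.14 FPKM in HFD-AOSFMT, 1.21 ± 0.28 FPKM in HFD-conFMT, 1.25 ± 0.265 FPKM in HFD and 1.46 ± 0.357 FPKM in HFD-AOS. Only the groups at the ends of this order, AOS at 0.95 to 1.06 FPKM and HFD-AOS at 1.13 to 1.84 FPKM, did not overlap. The androgen target Rhox5 (chromosome X, 37804842 to 37808876, plus strand) had group means within a ratio of 1.14 of each other. They ran from 9.83 ± 1.11 FPKM in control to 11.2 ± 0.204 FPKM in HFD-AOSFMT, and only AOS and HFD-AOSFMT did not overlap. Its spread differed more than its mean: HFD ran from 8.59 to 13.71 FPKM and HFD-AOS from 7.78 to 13.54 FPKM, while HFD-AOSFMT stayed within 10.97 to 11.35 FPKM. The spreads were not compared by a test. Wt1, Fshr and Rhox5 had 1 pair of groups each without overlap, below the average of 2.55 over the genes tested.

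The secreted products came next. Inhbb (chromosome 1, 119415465 to 119422248, minus strand) read 4.94, 5.65 and 5.09 FPKM in control, 5.02, 4.99 and 4.95 FPKM in AOS and 4.51, 4.59 and 4.38 FPKM in HFD. It read 5.22, 4.84 and 4.66 FPKM in HFD-AOS, 4.30, 4.93 and 4.94 FPKM in HFD-AOSFMT and 4.73, 5.12 and 5.13 FPKM in HFD-conFMT. The 3 HFD libraries lay below every library of the control, AOS, HFD-AOS and HFD-conFMT groups, and HFD-AOSFMT 1 was the only library lower still. For Inhbb 5 of the 15 pairs of groups did not overlap, where the genes tested had 2.55 such pairs on average. The F test gave a limma adjusted p of 0.392.

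Inha (chromosome 1, 75507077 to 75510366, plus strand) measured 55.77, 51.04 and 54.01 FPKM in control, 52.31, 56.65 and 51.04 FPKM in AOS and 46.27, 46.37 and 56.80 FPKM in HFD. It measured 51.22, 58.66 and 57.66 FPKM in HFD-AOS, 53.48, 59.45 and 66.39 FPKM in HFD-AOSFMT and 54.90, 54.76 and 60.19 FPKM in HFD-conFMT. HFD 1 and HFD 2 were the lowest of the 18 libraries, but HFD 3 lay above all control and AOS libraries, and 0 of the 15 pairs of groups were apart. The F test gave Inha a limma adjusted p of 0.381.

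Clu (chromosome 14, 65968483 to 65981547, plus strand) differed least, with group means from 474 ± 22.5 FPKM in AOS to 497 ± 35 FPKM in HFD-AOS, a ratio of 1.05. Amh (chromosome 10, 80805243 to 80807648, plus strand) had the widest ratio of group means, 1.5, between 0.79 ± 0.231 FPKM in control and 1.19 ± 0.335 FPKM in HFD-conFMT. Its libraries ran from 0.53 FPKM in control 2 to 1.55 FPKM in HFD-conFMT 3, and all 15 pairs of groups overlapped. In each of the 9 genes, groups next to each other in the order of their means overlapped. None of the 9 overlaps another annotated gene on mm10 in GENCODE M21.

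With the high-fat diet alone against control, 2 of the 8 genes tested did not overlap between groups, Gata4 and Inhbb, both lower in HFD. Over all genes, 12.5% did not overlap in this comparison. Inhbb was 4.49 ± 0.106 FPKM in HFD against 5.23 ± 0.374 FPKM in control (n = 3 each), a log2 fold change of -0.18 ± 0.062 (SE; 95% interval -0.31 to -0.048; limma adjusted p = 0.656). Gata4 differed by -0.11 (limma adjusted p = 0.815). In this test limma called 0 of the 8 genes, and 0 of all genes (background 0%), with 1 of the 8 and 884 of all genes at an unadjusted p under 0.05. Of the 8, 2 were higher and 6 lower with a median log2 fold change of -0.073, beside a median of -0.011 over all genes, 45.2% of which were higher. Lower alongside were 6 of 7 macrophage (median -0.19), 4 of 4 endothelial (-0.12) and 5 of 8 Leydig cell markers (-0.082). Higher were 10 of 10 spermatid (0.095), 6 of 10 spermatocyte (0.015) and 4 of 6 spermatogonia markers (0.060). Peritubular myoid markers split 3 and 3. None of these markers was called, and their part was not tested. Each fold change was computed from log2(FPKM + 1), so that changes of low genes such as Fshr appear smaller than they are.

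AOS against control in mice without the diet gave 0 calls among the 8 genes, of which 0 had an unadjusted p under 0.05, against a limma background of 0.0229% called and 2071 genes at an unadjusted p under 0.05. Only Gata4 did not overlap, being lower in AOS (5.53 ± 0.41 against 6.33 ± 0.118 FPKM; log2 fold change -0.17 ± 0.085 SE, limma adjusted p = 0.35), where 23.2% of all genes did not overlap. The median of the 8 was -0.042, with 2 higher and 6 lower, and that of all genes was -0.029, with 40.2% of them higher. Inha, Clu and Inhbb differed by -0.0077, -0.028 and -0.055. Leydig cell markers, whose cells also express Gata4, were lower alongside, all 8 of them with a median of -0.32. So were 7 of 7 macrophage (-0.088), 4 of 4 endothelial (-0.16), 5 of 6 peritubular myoid (-0.091) and 7 of 10 spermatocyte markers (-0.040). Higher were 8 of 10 spermatid (0.16) and 4 of 6 spermatogonia markers (0.028). None of these markers was called, and the part of these cells in the Gata4 values was not tested. The HFD and AOS comparisons share the 3 control libraries.

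With AOS added to the diet, HFD-AOS against HFD, 7 of the 8 genes were higher and 1, Wt1, was lower (median 0.093, all genes -0.017, 43.9% of them higher). Markers of other cells differed in the same comparison, with 0 called: 6 of 7 macrophage markers (median 0.13) and 9 of 10 spermatid markers (0.11) were higher, and 9 of 10 spermatocyte markers were lower (-0.10). Their part in the result was not tested. Sox9 had the largest difference, 3.24 ± 0.444 against 2.51 ± 0.588 FPKM, a log2 fold change of 0.28 ± 0.13 (SE; 95% interval 0.0033 to 0.55; limma adjusted p = 0.388), and 0.17 without HFD 1. Inhbb was the only gene without overlap, at 4.91 ± 0.286 against 4.49 ± 0.106 FPKM (log2 fold change 0.10, limma adjusted p = 0.5; 0.066 without HFD-AOS 1), where 13.4% of all genes did not overlap. Inha differed by 0.17 (limma adjusted p = 0.435), and by 0.26 without HFD 3. limma called 0 of the 8 and 0% of all genes, with 1 of the 8 and 1664 of all genes at an unadjusted p under 0.05. The Gata4 difference of 0.082 rested on HFD-AOS 1 and was -0.045 without it. That library was the highest of the 18 for Gata4, Fshr, Insl3 and Prm1 and the lowest for Rhox5.

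Whether AOS acted differently with and without the diet was asked by the difference of these log2 fold changes. For Gata4 it was 0.25 ± 0.12 (SE; limma adjusted p = 0.736), and 0.12 without HFD-AOS 1. It was positive for 7 of the 8 genes, with a median of 0.16 beside 0.0097 over all genes, 53.0% of which were positive. The 23 other Sertoli genes had a median of 0.0039 (12 positive, 11 negative). Markers of other somatic cells were mostly positive alongside, with 0 called. These were 6 of 8 Leydig cell (median 0.30), 7 of 7 macrophage (0.26), 4 of 4 endothelial (0.13) and 6 of 6 peritubular myoid markers (0.055). Of the germ cell markers, 4 of 6 spermatogonia (median -0.11), 6 of 10 spermatocyte (-0.053) and 6 of 10 spermatid markers (-0.021) were negative, with 0 called. The part of these cells in the difference was not tested. limma called 0 of the 8 (background 0%), with 0 of the 8 and 899 of all genes at an unadjusted p under 0.05.

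FMT with the diet was compared with the diet alone. In HFD-AOSFMT, Inha stood at 59.8 ± 6.46 FPKM against 49.8 ± 6.05 FPKM in HFD, a log2 fold change of 0.26 ± 0.086 (SE; 95% interval 0.076 to 0.44; limma adjusted p = 0.384), with overlapping values. Gata4 was lower without overlap, 5.04 ± 0.148 against 5.79 ± 0.36 FPKM (log2 fold change -0.17, limma adjusted p = 0.544), where 17.2% of all genes did not overlap. Peritubular myoid markers lay lower alongside, 5 of 6 with a median of -0.19, as did 9 of 10 spermatocyte markers (-0.050). Higher were 7 of 7 macrophage markers (0.15) and 7 of 10 spermatid markers (0.074). Leydig cell markers, whose cells also express Inha, split 3 higher and 5 lower (-0.054). HFD-AOSFMT 3 was the highest of the 18 libraries for Inha and for the centred mean of the Leydig list (0.25). None of these markers was called, and their part was not tested. limma called 0 of the 8 genes and 0.0229% of all genes, with 1 of the 8 and 1287 of all genes at an unadjusted p under 0.05. The median of the 8 was 0.032, with 5 higher and 3 lower.

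In HFD-conFMT, Inha stood at 56.6 ± 3.1 FPKM, 0.19 above HFD on the log2 scale (95% interval 0.0034 to 0.37; limma adjusted p = 0.396), and 0.28 above it without HFD 3. Inhbb was 4.99 ± 0.228 against 4.49 ± 0.106 FPKM, higher without overlap (log2 fold change 0.13, limma adjusted p = 0.432), where 20.2% of all genes did not overlap. limma called 0 of the 8 and 0% of all genes, with 1 of the 8 and 1607 of all genes at an unadjusted p under 0.05. The 8 split 4 higher and 4 lower (median 0.0024). Of the marker lists, 6 of 7 macrophage (median 0.23), 5 of 6 peritubular myoid (0.088) and 7 of 10 spermatid markers (0.069) were higher. Of 10 spermatocyte markers 9 were lower (-0.064). Leydig cell markers split 4 higher and 4 lower (-0.060). None of these markers was called, and their part was not tested. The 4 comparisons that involve HFD share its 3 libraries, so the low Inhbb and Inha values of that group enter each of them.

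Between the FMT groups, the medians and counts were nearly even. Of the 8, 3 were higher and 5 lower in HFD-AOSFMT than in HFD-conFMT, with a median of -0.0071. Gata4 did not overlap, at 4.91 to 5.2 against 5.45 to 5.77 FPKM (log2 fold change -0.12), where 10.1% of all genes did not overlap. Here 6 of 6 peritubular myoid (median -0.28), 6 of 7 macrophage (-0.11) and 7 of 10 spermatid markers (-0.041) were lower too. Of 10 spermatocyte markers 8 were higher (0.043). None of these markers was called, and their part was not tested. limma called 0 of the 8 and 0.00763% of all genes, with 0 of the 8 and 409 of all genes at an unadjusted p under 0.05. Inha, higher than HFD in each FMT group by the values above, differed by 0.07 between them (95% interval -0.11 to 0.26). The F test over the 6 groups likewise called 0 of the 8 genes and 0.328% of all genes, with 0 of the 8 and 2361 of all genes at an unadjusted p under 0.05.

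The intervals show which differences these libraries leave possible. Over the 6 comparisons and 9 genes, 54 in all, 4 of the 95% intervals left out 0 and the largest log2 fold change was 0.28. Of all 13105 genes tested, 409 to 2071 had such an interval (limma unadjusted p under 0.05), depending on the comparison. As a change of FPKM + 1, the bounds over the 6 comparisons reached from -10.0% to 12.3% for Clu, from -13.7% to 10.6% for Wt1, from -19.3% to 19.4% for Inhbb and from -21.5% to 20% for Gata4. They reached 29.8% for Fshr, 35.9% for Inha, 37% for Rhox5, 39.6% for Amh and 46.6% for Sox9 upwards, and -22.5%, -18.4%, -21.8%, -24% and -26% downwards. As a change of FPKM itself, the bounds of low genes such as Amh, Fshr and Sox9 would be wider, so these bounds do not rank the genes. For Amh the fit without the minimum level gave limma adjusted p-values from 0.757 to 1 in the 6 comparisons, with SE 0.15. In whole testis, fewer Sertoli cells and less RNA per cell cannot be told apart.

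**Figure D2:**
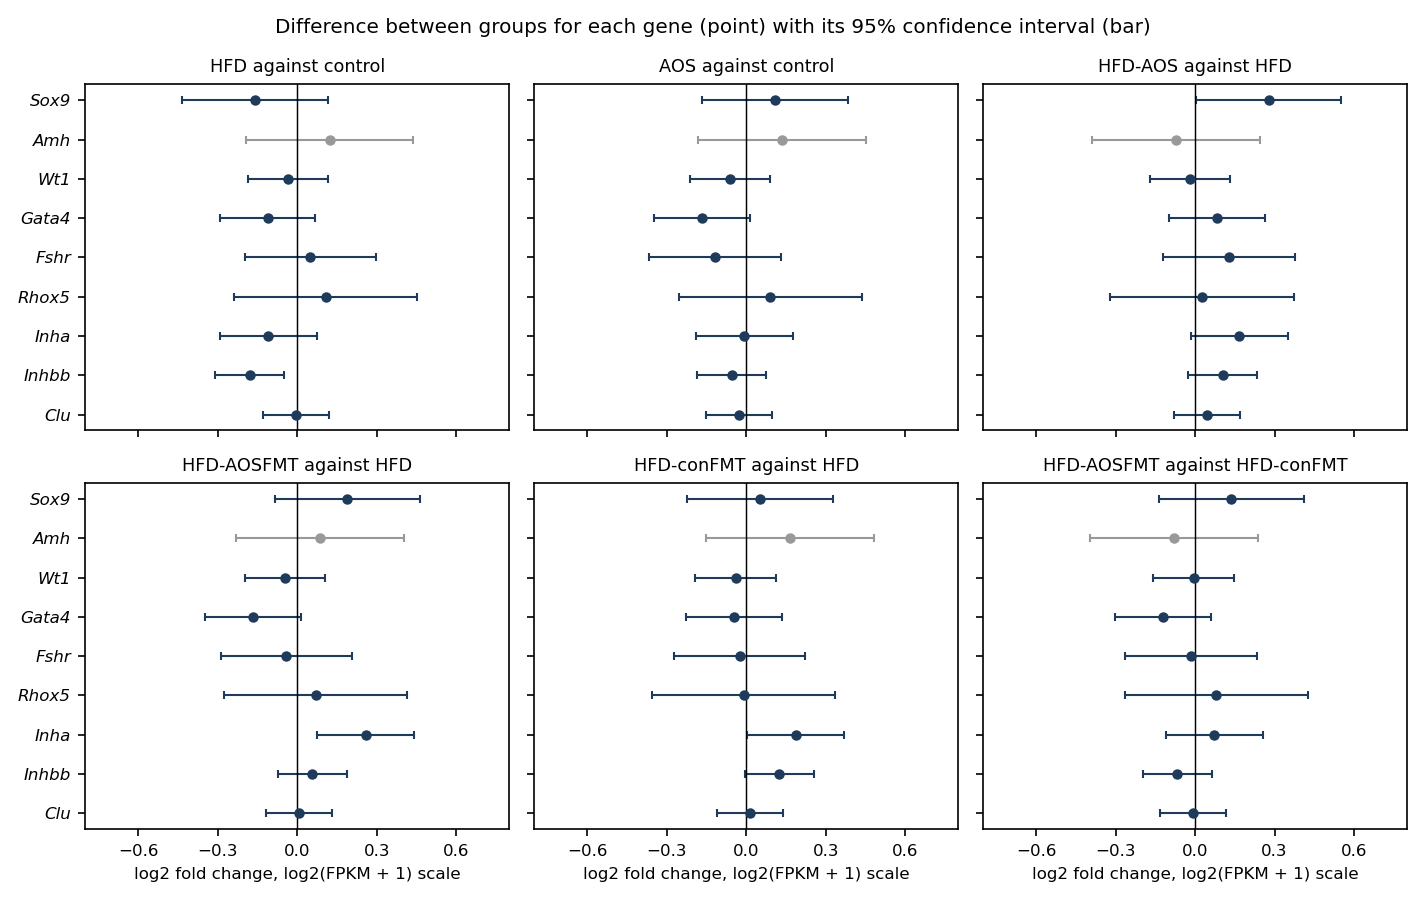
Log2 fold change on the log2(FPKM + 1) scale (x axis) of each gene (y axis) in the 6 comparisons, with 95% intervals as bars; Amh is grey because it comes from the fit without a minimum level. The intervals of Inhbb in HFD against control (-0.31 to -0.048) and of Inha in HFD-AOSFMT against HFD (0.076 to 0.44) are the 2 that clear 0 most visibly.

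Genes of the same cells and pathways also had 0 calls. Calls were rare over all genes too, at 0% to 0.0229% per comparison and 0.328% by the F test. A count of 0 in a short list therefore shows little. Of 25 other Sertoli genes, 23 were tested and 0 were called in any comparison or by the F test. Their median log2 fold change was -0.016 in HFD against control (11 higher, 12 lower), -0.015 in AOS against control (11 and 12) and 0.0025 in HFD-AOS against HFD (13 and 10). It was -0.021 in HFD-AOSFMT against HFD (10 and 13), 0.022 in HFD-conFMT against HFD (13 and 10) and -0.031 between the FMT groups (8 and 15). The smallest p-values belonged to Vim, which encodes an intermediate filament protein, and Tjp1, which encodes the tight junction protein ZO-1. Vim was 27.8 ± 0.735 FPKM in HFD-AOSFMT against 31.7 ± 1.3 FPKM in HFD-conFMT (limma adjusted p = 1). Tjp1 was 15.7 ± 0.459 FPKM in HFD-conFMT against 17.9 ± 1.08 FPKM in HFD (limma adjusted p = 0.271). Of the 23, 5 had an unadjusted limma F test p under 0.05, beside 0 of the 8 genes and 2361 of all 13105 genes.

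FSH and androgen signalling, from the G protein gene Gnas through protein kinase A to hormone-responsive genes, had 14 of 17 genes tested and 0 called. Its medians lay between -0.026 (5 higher and 9 lower, HFD-AOSFMT against HFD-conFMT) and 0.017 (7 and 7, HFD-conFMT against HFD). The smallest p-values were those of Tubb3, 14.9 ± 0.365 FPKM in AOS against 12.6 ± 0.335 FPKM in control (limma adjusted p = 0.173), and of Rhox8, a Rhox5 relative, in the same comparison at 13.8 FPKM (SD 1.2) against 11.9 ± 0.495 FPKM (limma adjusted p = 0.174).

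In the activin, inhibin and AMH pathway 12 of 18 genes were tested and 0 called. More were lower than higher in the comparisons with control and with HFD, which share libraries. These were 8 of 12 in HFD against control (median -0.031), 9 in AOS against control (-0.065) and 9 in HFD-AOS against HFD (-0.051). They were 8 each in HFD-AOSFMT (-0.025) and HFD-conFMT (-0.041) against HFD. Most of all genes were lower too, with 45.2%, 40.2%, 43.9%, 47.3% and 49.2% higher in the same order. Between the FMT groups 7 of the 12 were higher and 5 lower (0.020). The AMH receptor gene Amhr2 was far above its ligand, at 80.2 to 94.8 FPKM. Smad4, the shared signal carrier of the pathway, was 6.62 ± 0.472 FPKM in AOS against 8.01 ± 0.297 FPKM in control (limma adjusted p = 0.169). The activin receptor gene Acvr2a was 4.18 ± 0.122 FPKM in HFD-AOS against 4.69 ± 0.153 FPKM in HFD (limma adjusted p = 0.36).

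Of 18 partners of SOX9, WT1 and GATA4, 11 were tested and 0 called, with medians from -0.057 (5 higher and 6 lower, HFD-AOS against HFD) to 0.00096 (6 and 5, between the FMT groups). Zfpm2 encodes FOG2, the cofactor that GATA4 binds in the gonad. It was 4.2 ± 0.193 FPKM in AOS against 4.95 ± 0.142 FPKM in control, without overlap (log2 fold change -0.20, limma adjusted p = 0.136). Gata4 did not overlap in this comparison either, and nor did 23.2% of all genes. Wtip, which encodes a WT1-interacting protein, was 3.2 ± 0.119 FPKM in HFD-conFMT against 2.44 ± 0.14 FPKM in HFD (limma adjusted p = 0.203).

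Lists of Leydig, peritubular myoid and macrophage markers spanned wider ranges over the libraries than the Sertoli genes. The mean of a list's genes, each centred on its 18-library mean on the log2(FPKM + 1) scale, ran from -0.13 to 0.10 for the 8 genes and from -0.073 to 0.077 for the other Sertoli genes. It ran from -0.31 to 0.25 for 8 Leydig cell markers and from -0.27 to 0.25 for 6 peritubular myoid markers. Macrophage markers ran from -0.23 to 0.18, endothelial markers from -0.085 to 0.19, spermatogonia markers from -0.11 to 0.056 and spermatocyte markers from -0.084 to 0.099. Spermatid markers lay at -0.15 to -0.080 in control, below all but 1 of the other libraries, which ran up to 0.15, and 10 of 10 were higher in HFD than in control with 0 called. Summed over their list, Leydig cell markers came to 3542 to 4057 FPKM in control and 2592 to 3534 FPKM in AOS, and no marker was at 0. The markers of smallest p, none of them called, were Star (HFD-AOS against HFD, log2 fold change -0.64) and Cyp11a1 (AOS against control, -0.54) among Leydig genes, and Acta2 (HFD-AOSFMT against HFD-conFMT, -0.33) and Myh11 (HFD-AOSFMT against HFD, -0.17) among myoid genes. Lyz2 (0.57) and C1qc (0.38) led the macrophage genes, both in HFD-conFMT against HFD, and Eng (AOS against control, -0.24) and Kdr (HFD against control, -0.26) the endothelial genes. Cst8 (AOS against control, 0.27) and Crisp1 (HFD-AOSFMT against HFD-conFMT, -3.44) led the list of epididymal genes. Cst8 stood at 240 to 345 FPKM in every library and was highest in HFD-AOSFMT 2, where Crisp1 was 0.15 FPKM. The source of the Cst8 difference was not tested. Among germ cell genes the markers of smallest p were Id4 (HFD-AOS against HFD, -0.20), Uchl1 (HFD-AOSFMT against HFD, 0.17) and Piwil1 (HFD-conFMT against HFD, -0.20). Beside them, all in AOS against control, were Sycp2 (-0.22), Tnp2 (0.33) and Tssk2 (0.14). The limma adjusted p-values of these markers ran from 0.104 to 1. The part of these cell types in the values of the 9 genes was not tested.

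**Figure D3:**
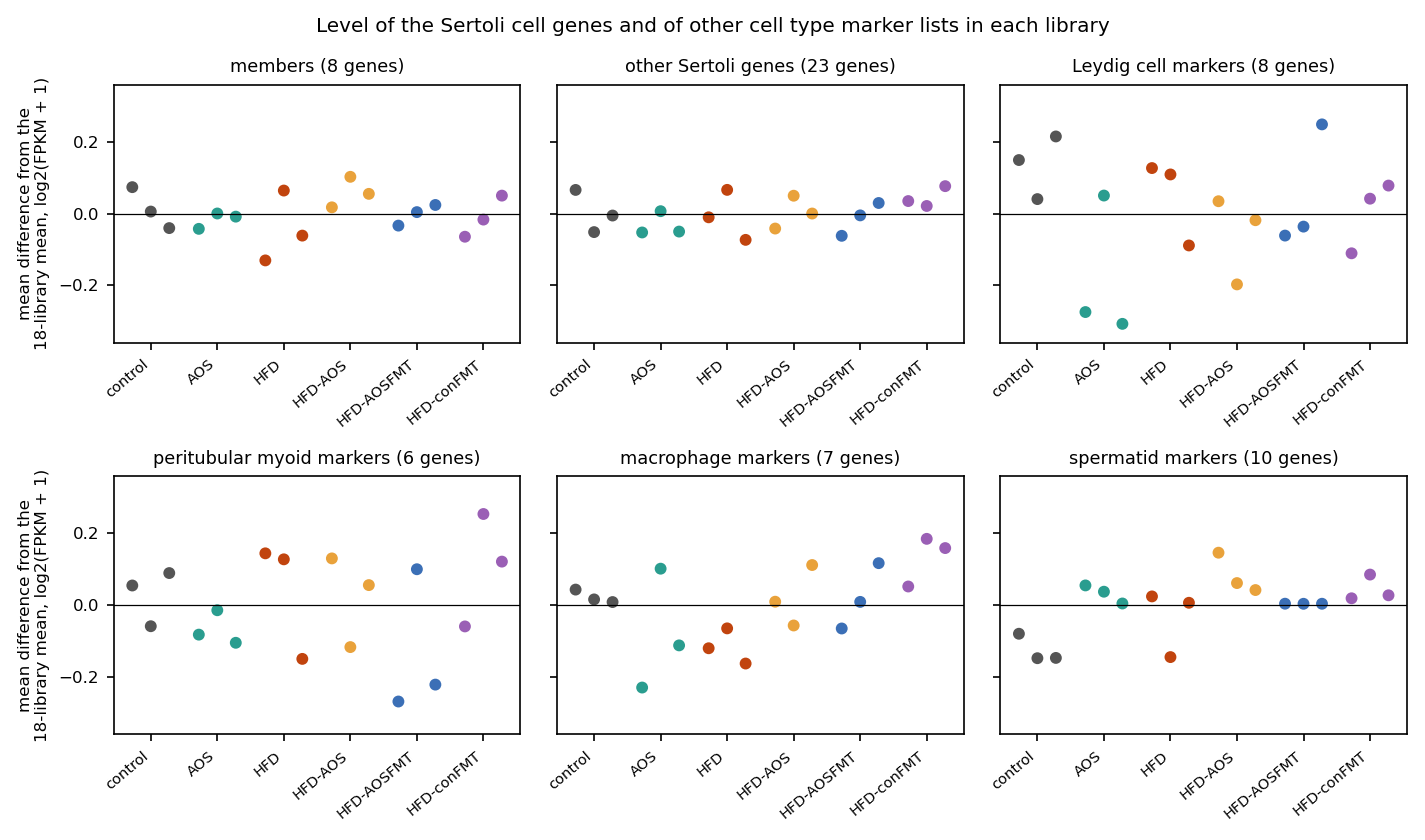
Mean difference from the 18-library mean on the log2(FPKM + 1) scale (y axis) in each library (points) by group (x axis), for the 8 tested genes (members), other Sertoli genes and markers of 4 other cell types. The 8 genes stay within -0.13 to 0.10, while Leydig cell markers run from -0.31 to 0.25.

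The 9 genes did not move as a block from library to library. Over their 36 pairs the median Pearson r across the 18 libraries was 0.053, and 61.1% of pairs were positive, against a median of 0.015 and 52% positive for pairs of all genes tested. The highest r was between the androgen target Rhox5 and Clu, 0.55 (Spearman rho 0.62; 0.59 without the 2 libraries farthest from the median), and the lowest between Gata4 and Rhox5, -0.44 (rho -0.30; -0.12 without the 2 farthest). Inha and Clu followed at 0.51 (rho 0.58). Gata4 and Fshr had an r of 0.50 that rested on few libraries, being 0.22 without the 2 farthest. The subunits of inhibin B, Inha and Inhbb, had an r of 0.10 and a rho of -0.030. The estimated counting CV of Inhbb, 5.97%, was close to its observed 6.65%, and the part of counting in this r was not tested. These values describe libraries that share groups, depth and cell make-up.

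Single libraries stood out in several genes at once. HFD 1 was the lowest of the 18 in 3 of the 9 genes, Sox9, Wt1 and Inha, and above the median in 1. HFD-conFMT 3 was the highest in Amh and Wt1 and above the median in 7, and control 1 was above the median in 8. Without HFD 1 the count of calls among the 8 genes remained 0 in every comparison.

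**Figure D4:**
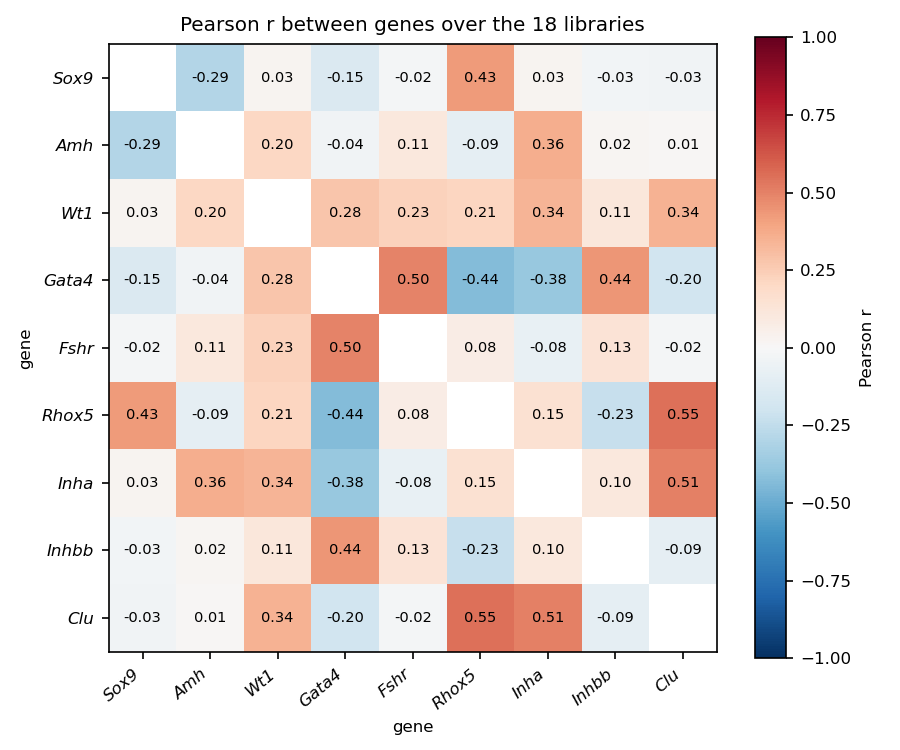
Pearson r over the 18 libraries between each pair of the 9 genes (both axes), written in each cell and coloured from -1 (blue) to 1 (red). The highest value is 0.55 for Rhox5 with Clu and the lowest -0.44 for Gata4 with Rhox5, which is -0.12 without the 2 farthest libraries.

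For each of the 8 tested genes the closest pattern belonged to a gene outside the 9, when the 2 highest Pearson r among 12086 candidates were taken over the 18 libraries. Gata4 was nearest to Cald1, which encodes the actin-binding protein caldesmon (r 0.87, rho 0.88), and to Atxn2 (0.85, rho 0.70). Rhox5 was nearest to Got1l1 (0.85) and to Fkbp6, a gene of meiotic germ cells (0.81), and Clu to Fdxr, which encodes ferredoxin reductase (0.83), and Phyh (0.78). Fshr was nearest to Cetn4 (0.81, but 0.59 without the 2 farthest libraries) and Fam98a (0.79). Inha was nearest to Wnt6 (0.78) and Rad51c (0.77), and Wt1 to Mrc1, the macrophage mannose receptor gene (0.76), and Ppp3ca (0.74). Inhbb was nearest to Pmel (0.75) and Celf4 (0.74), and Sox9 had the weakest closest partners, Traf1 (0.69) and Fyb (0.68). They are the highest of many candidates and carry no p-value.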

How the data were processed

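RNA was extracted from frozen testis with Trizol and a column kit and made into Illumina libraries, per the labels' protocols. Reads were mapped with Bowtie 0.12.2 to mm10, per the submitters' processing notes. How reads were counted, with which annotation and strand setting, is not given in the sources used here. One table of 20985 rows was deposited, with no unit in its header. The authors' values were read as FPKM because their sums differ between libraries and the smallest values above 0 fall as transcript length rises. Columns were matched to samples only through the letters and digits of the column names, on which every group value rests.

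Symbols on more than 1 row (3 symbols, 6 rows) were dropped. The 13105 genes averaging 1 FPKM or more were fitted as log2(FPKM + 1) in limma 3.58.1 (R 4.3.3) with 6 group means, a mean-variance trend and 12 residual degrees of freedom. Tests were two-sided, with Benjamini-Hochberg adjustment over all genes and a threshold of 0.05. The fit was tested on simulated data. All 9 genes are named. From each other list the text names the 2 genes of smallest p, and as most alike the 2 genes of highest Pearson r. A gene of the lists is not reported here. Other genes, such as Inhba, Crisp1, Foxl2 and Amhr2, were named after their values were seen. The genes, lists and tests were chosen with earlier results of these data known. Descriptions and plots used Python 3.11.15 and matplotlib 3.10.9.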

Additional observations from a re-analysis of the deposited data

How the results depend on the processing

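Under 30 alternatives (pseudocount, minimum level, normalization, variance trend, array weights, groups in the fit, epididymal transcripts, each library left out, and, chosen after seeing the data, no minimum level with a pseudocount of 0.1 FPKM), limma called 0 of the 8 genes in each comparison, the difference of effects and the F test. The F test has no value with only the groups compared. The lowest adjusted p was 0.15, for Gata4 in AOS against control without HFD-AOS 1. Of the 56 log2 fold changes of these 8 genes, 32 kept their sign in every alternative run for them, and the largest of those that changed sign was 0.11. Inhbb in HFD against control ran from -0.21 to -0.11, and Inha in HFD-AOSFMT against HFD from 0.18 to 0.36.

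Counts over all genes moved far more. Leaving out 1 library gave 0 to 44 calls for AOS against control (main 3), 0 to 4 for HFD-AOS against HFD (main 0), 1 to 6 for HFD-AOSFMT against HFD (main 3), 0 to 17 for HFD-conFMT against HFD (main 0) and 2 to 145 for the F test (main 43). The other settings gave 0 to 240, 0 to 3, 1 to 27, 0 to 9 and 1 to 130 in the same order, up to 1 for HFD against control (main 0) and up to 16 between the FMT groups (main 1). The cause was not tested.

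With the replicate number as a replicate block, limma called 0 of the 8 genes in each comparison. Same-numbered libraries of different groups had a median correlation of deviations of -0.0091 over 45 pairs, so the numbers were not taken to pair them. Amh and Fshr rest on the fewest estimated reads, and Amh has 1 alternative only.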
